A study of Mus musculus with 6 samples.

Results

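The genes described here are the Wnt ligands, their Frizzled, LRP and ROR receptors and the secreted Wnt antagonists, together with the R-spondins and *Axin2*, in cardiac fibroblasts taken after myocardial infarction (MI). Members were chosen by gene name, and the rule matched 48 of the 34745 listed genes. They comprise 19 ligands, 14 receptors and co-receptors (10 Frizzled genes, *Lrp5*, *Lrp6*, *Ror1* and *Ror2*), 10 antagonists (*Sfrp1*, *Sfrp2*, *Sfrp4*, *Sfrp5*, *Frzb*, *Dkk1* to *Dkk4* and *Wif1*), 4 R-spondins and *Axin2*. RNA-seq was performed on left ventricular cardiac fibroblasts in 3 libraries labelled KO and 3 labelled WT, collected on Day 7 after MI. Every library, of either label, comes from an infarcted heart, and no sham-operated heart enters the comparison. The mice were 8 to 10 weeks old on a C57BL/6 background, the MI operation ligated the left anterior descending artery of male mice, and WT mice were littermates. The KO allele was made with CRISPR/Cas9 by removing a segment of *Kdm5b*, which encodes an H3K4 demethylase, that includes the JmjC domain. It is a constitutive allele, so every cell type of the mouse carries it, and a read that falls outside the removed segment still counts.

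Wnt proteins are lipid-modified signals that bind Frizzled receptors at the cell surface. With the co-receptors LRP5 and LRP6 they stabilize β-catenin, which acts with TCF/LEF factors on target genes such as *Axin2*, and with ROR2 and other receptors they act through routes that do not need β-catenin. Secreted Frizzled-related proteins and WIF1 bind Wnts outside the cell, DKK1 blocks the LRP co-receptors, and R-spondins keep Frizzled receptors at the surface. In the infarcted heart, this pathway is known for its part in fibroblast activation and in the growth of vessels.

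Between 12025403 and 15329427 fragments or reads were counted on genes per library, and 14084 genes passed edgeR's expression filter and were tested. Differences are KO-labelled against WT-labelled libraries, on the log2 scale with a standard error (SE), and a gene is called when its Benjamini-Hochberg adjusted p over all tested genes is under 0.05. The sources do not say that the libraries of a label come from separate animals, so p-values measure the spread between these libraries. The FPKM of *Kdm5b* were 5.13, 5.53 and 5.47 in KO-labelled libraries and 5.51, 6.52 and 6.27 in WT-labelled ones. Its log2 fold change was -0.22 (SE 0.07, adjusted p = 0.0574), so the targeted gene does not check the labels at this threshold. All 15 fibroblast markers had counts in every library, with a summed FPKM of 3549 to 4088 in KO-labelled libraries and 4867 to 5150 in WT-labelled ones. Of these 15 markers, 14 fell, with a median log2 fold change of -0.42. Of 14 endothelial markers, 13 rose and the other was not called, with a median of 2.64, and their summed FPKM was 380, 266 and 311 against 50.7, 51.3 and 50.3. Of 10 macrophage markers 5 fell and 1 rose (median -0.39), of 10 mesothelial markers 9 fell and 1 rose (median -0.41), and of 12 cardiomyocyte markers 8 fell and 4 were not called (median -0.41). Neutrophil markers summed to between 6.08 and 9.64 FPKM against between 1.01 and 2.02, with 2 of 3 tested markers called higher. Of 10 mural markers, 7 were tested, of which 3 fell, 1 rose and 3 were not called (median -0.42), and *Vtn* and *Higd1b* had 0 counts. In bulk RNA, fewer cells of a type and less RNA per cell cannot be told apart. The part of these marker shifts in the results on Wnt genes was not tested.

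Of the 48 genes, 30 passed the filter and 18 did not. Among the 30, 4 rose (*Wnt9b*, *Fzd4*, *Fzd5* and *Lrp5*) and 10 fell (*Wnt5a*, *Wnt11*, *Fzd1*, *Fzd2*, *Ror2*, *Sfrp1*, *Sfrp2*, *Frzb*, *Dkk3* and *Rspo1*). The share called was 46.7%, against 30.2% of all tested genes. *Wnt9b* passed the filter through the KO-labelled libraries alone and so had to differ; of the other 29 genes, 3 rose and 10 fell, or 44.8% called. Of all tested genes 17.7% were called higher and 12.5% lower. The median log2 fold change of the 30 was -0.38, against -0.02 for all tested genes, with 25 values below 0 and 5 above. The libraries of the labels did not overlap for 18 of the 30 genes, 4 higher and 14 lower, against 47.0% of all tested genes (24.7% higher and 22.4% lower), and for 17 of 29 without *Wnt9b*, 3 of them higher. When libraries were instead scaled so that the fibroblast markers had a median ratio of 1, an alternative chosen after seeing the data, the median of all genes moved to 0.41. On that scale, 1 of the 30 tested members was called lower (*Fzd1*), against 0.263% of all tested genes. Higher calls on that scale were 6 of the 30 (*Wnt9b*, *Fzd4*, *Fzd5*, *Lrp5*, *Lrp6* and *Fzd6*), against 63.1% of all tested genes.

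**Figure D1:**
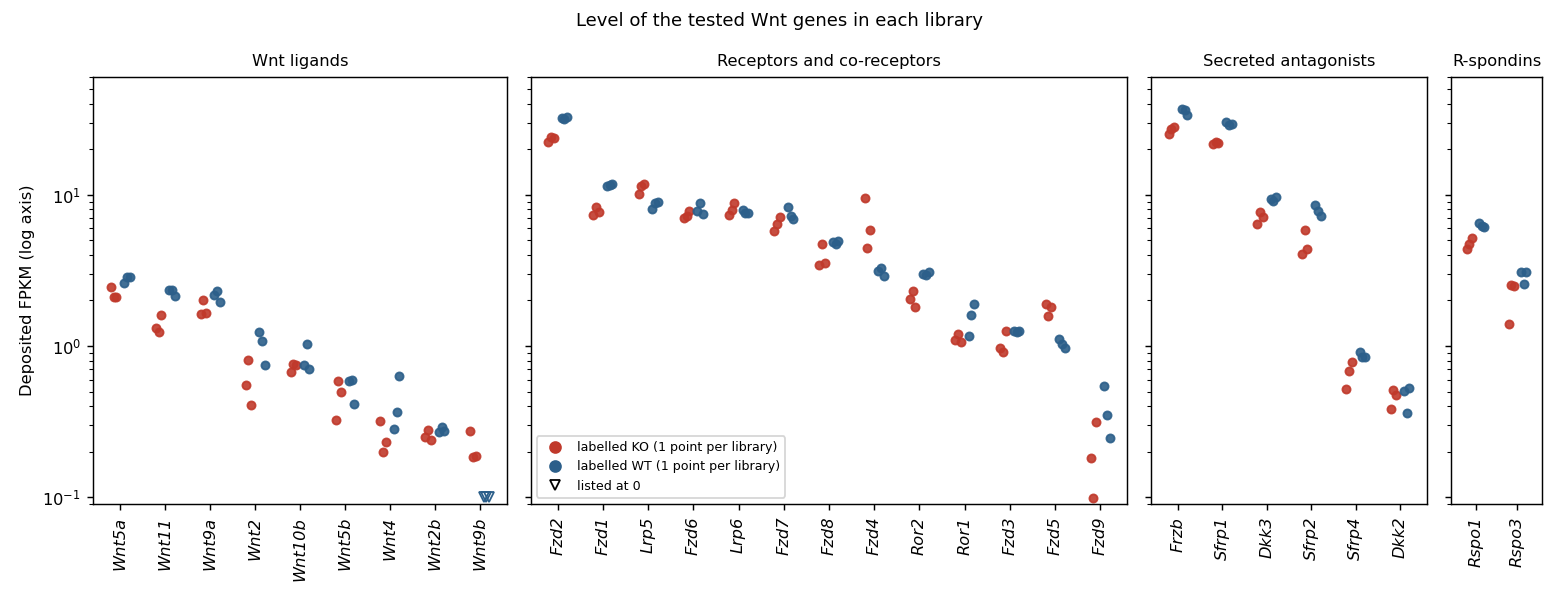
FPKM (log axis) of the tested Wnt genes in each of the 3 KO-labelled and the 3 WT-labelled libraries, grouped by role, with a point for each library and open triangles for values listed at 0. *Fzd2*, *Sfrp1* and *Frzb* were at 21.8 FPKM or above in every library, and the ligands were below 3 FPKM throughout.

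Among the ligands, transcripts were few and most differences were small. Of 19 ligand genes, 9 passed the filter, 1 rose (*Wnt9b*), 2 fell (*Wnt5a* and *Wnt11*) and 6 were not called, and their median log2 fold change was -0.31. The share called was 33.3%, or 2 of 8 (25.0%) without *Wnt9b*, against 30.2% of all tested genes. *Wnt5a* encodes a ligand best known for signaling without β-catenin, and it had the highest mean FPKM of the ligands in both labels. Its FPKM were 2.46, 2.12 and 2.12 in KO-labelled libraries and 2.59, 2.85 and 2.87 in WT-labelled ones. Every KO-labelled library was below every WT-labelled library, by a small margin between KO 1 and WT 1. The log2 fold change was -0.35 (SE 0.09, adjusted p = 0.0174), but the call was lost with limma on log2(FPKM + 1) and on leaving out 1 of 4 libraries (KO 2, KO 3, WT 2 or WT 3; adjusted p up to 0.0703), and the direction turned to 0.09 on scaling to fibroblast markers. *Gm2670*, annotated on the opposite strand across 3319 bases of *Wnt5a*, had 24 counts over all libraries against 2644 for *Wnt5a*. The genes that overlap *Fzd5* (*Gm38058*), *Rspo4* (*Rspo4os*) and *Sfrp2* (*Gm26771*) had 3, 3 and 1 counts in all, and those that overlap *Wnt7b* (*AU022754*), *Axin2* (*Gm11670*), *Wnt6* (*Gm29539*), *Wnt2b* (*Gm43846*), *Ror1* (*Gm12701*) and *Rspo1* (*Gm12930*) had 0.

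*Wnt11*, another ligand known mainly for the planar polarity route, had the larger fall of the pair. Its FPKM were 1.32, 1.24 and 1.61 in KO-labelled libraries and 2.34, 2.36 and 2.15 in WT-labelled ones, with no overlap. The log2 fold change was -0.74 (SE 0.12, adjusted p = 0.00301). It was called in each of the 6 fits that leave out a library, but not on scaling to fibroblast markers (-0.31, adjusted p = 0.0793). *Wnt11* made up 14.1% to 19.6% of the summed ligand FPKM in KO-labelled libraries and 20.3% to 22.1% in WT-labelled ones, whereas *Wnt5a* made up 24.1% to 29.6% and 24.4% to 28.2%.

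*Wnt9b*, a ligand known from kidney tubule development that signals through β-catenin there, was detected in KO-labelled libraries and in no library labelled WT. It had 15, 11 and 13 counts in KO-labelled libraries and 0, 0 and 0 in WT-labelled ones, which corresponds to 0.276, 0.184 and 0.188 FPKM against 0. Against a floor of 3 counts per library, its mean CPM was at least 4.63-fold higher. Since it passed the filter through one label, its adjusted p of 0.00246 (7.21e-05 to 0.0182 over other filters, scalings and tests) is given as a description. With no filter, edgeR gave an adjusted p of 0.00116 from the same counts, which is likewise a description and not separate support. Levels are low in every library, and a mean CPM of at least 1 as the filter leaves *Wnt9b* out. The gene lies on chromosome 11 from 103727364 to 103749821, on the minus strand, in GRCm38. Its neighbor *Wnt3*, 24.3 kb away, had 0, 3 and 2 counts in KO-labelled libraries and 0, 2 and 0 in WT-labelled ones.

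The other 6 tested ligands were not called. *Wnt9a*, the second most abundant ligand in KO-labelled libraries, had 1.63, 2.02 and 1.66 FPKM against 2.16, 2.32 and 1.95, a log2 fold change of -0.31 (adjusted p = 0.104). *Wnt2* and *Wnt4* had values of -0.83 (95% interval -1.57 to -0.09, adjusted p = 0.0863) and -0.82 (-1.68 to 0.04, adjusted p = 0.137). Their intervals are wide, and their libraries overlapped between the labels. WT 3 was the highest library for *Wnt4*, with 0.64 FPKM against 0.28 and 0.37 in WT 1 and WT 2. *Wnt10b*, *Wnt5b* and *Wnt2b* had values of -0.22, -0.20 and -0.15. Over the other fits except scaling to fibroblast markers, *Wnt10b* ranged from -0.32 to -0.03 and *Wnt5b* from -0.38 to -0.002. *Wnt5b* shares 2963 bases with *Fbxl14* on the opposite strand, a gene with more counts (2624 against 240 over all libraries), so its value is uncertain where strand was not used in counting. Of the 10 ligands that did not pass the filter, *Wnt3a*, *Wnt8a* and *Wnt8b* had 0 counts in every library, which allows up to 0.249 CPM in the smallest library. *Wnt7b* and *Wnt16* had at most 16 and 9 counts in a library, and *Wnt7a*, *Wnt6*, *Wnt1*, *Wnt3* and *Wnt10a* at most 8, 6, 5, 3 and 2.

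Genes for receptors were called in both directions. Of 14 receptors and co-receptors, 13 passed the filter, 3 rose (*Fzd4*, *Fzd5* and *Lrp5*), 3 fell (*Fzd1*, *Fzd2* and *Ror2*) and 7 were not called, with a median log2 fold change of -0.28. Of all tested genes, 17.7% were called higher and 12.5% lower, so calls in both directions are also seen outside this class. *Fzd4*, which is known as the receptor for Norrin in retinal vessels as well as for Wnts, had the largest rise. Its FPKM were 9.46, 4.46 and 5.84 in KO-labelled libraries and 3.12, 3.28 and 2.92 in WT-labelled ones. The labels did not overlap, and the KO-labelled libraries were much more spread than the WT-labelled ones, with KO 1 the highest. The log2 fold change was 1.04 (SE 0.25, 95% interval 0.48 to 1.61, adjusted p = 0.0139), and 0.71 without KO 1. KO 1 was also the library with the highest summed endothelial markers, and KO 2 was the lowest labelled KO in both measures. The part of endothelial RNA in the rise of *Fzd4* was not tested.

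*Fzd5*, a Frizzled receptor that takes part in eye and gut development, had 1.90, 1.58 and 1.82 FPKM in KO-labelled libraries and 1.12, 1.03 and 0.973 in WT-labelled ones. The groups were apart and each was narrow. The log2 fold change was 0.73 (SE 0.11, adjusted p = 0.00189). The LRP co-receptors were both expressed at several FPKM, and a difference between their changes was not tested. *Lrp5* had 10.1, 11.4 and 11.8 FPKM against 8.07, 8.88 and 8.99, a log2 fold change of 0.33 (SE 0.07, adjusted p = 0.0120), with every KO-labelled library above every WT-labelled library. *Lrp6* had 7.33, 7.96 and 8.85 FPKM against 7.94, 7.58 and 7.56. Its libraries overlapped, and its log2 fold change was 0.03 (95% interval -0.13 to 0.20, adjusted p = 0.77). The ratio of *Lrp5* to *Lrp6*, chosen after the values were seen and given without a test, was 1.38, 1.43 and 1.34 in KO-labelled libraries and 1.02, 1.17 and 1.19 in WT-labelled ones, and it does not depend on library scaling.

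*Fzd2* and *Fzd1*, closely related Frizzled receptors and the most abundant Frizzled genes in WT-labelled libraries, both fell. *Fzd2* had 22.3, 23.9 and 23.7 FPKM in KO-labelled libraries and 32.0, 31.9 and 32.6 in WT-labelled ones. The labels were well apart, and the log2 fold change was -0.50 (SE 0.05, adjusted p = 0.000314). *Fzd1* had 7.35, 8.28 and 7.71 FPKM against 11.5, 11.6 and 11.8. Its libraries were also apart, and the log2 fold change was -0.61 (SE 0.07, adjusted p = 0.000449). On scaling to fibroblast markers, *Fzd1* remained lower (-0.18, adjusted p = 0.0482) and *Fzd2* was not called (-0.07, adjusted p = 0.353). *Ror2*, a receptor tyrosine kinase that binds WNT5A, had 2.03, 2.31 and 1.82 FPKM against 3.00, 2.95 and 3.08. No library overlapped, and the log2 fold change was -0.59 (SE 0.11, adjusted p = 0.00459), with -0.16 (adjusted p = 0.213) on scaling to fibroblast markers.

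The receptors that were not called had mostly negative values. *Ror1* had -0.51 (95% interval -0.94 to -0.07, adjusted p = 0.0773), *Fzd8* -0.35 (adjusted p = 0.0859), *Fzd3* -0.28, *Fzd7* -0.24, *Fzd6* -0.16 and *Fzd9* -0.93 (adjusted p = 0.193). Leaving out a library moved *Fzd9* to between -1.46 (without KO 3) and -0.59 (without WT 1), and *Fzd6* to -0.081 without WT 2. *Fzd10* did not pass the filter, with at most 6 counts in a library. FPKM are per length, so levels can be compared between the Frizzled genes. Their summed FPKM were 58.6, 57.7 and 59.2 in KO-labelled libraries and 70.7, 70.1 and 69.2 in WT-labelled ones. *Fzd2* was the most abundant in every library, with 38.1%, 41.5% and 40.1% of that sum in KO-labelled libraries and 45.3%, 45.4% and 47.2% in WT-labelled ones. *Fzd4* made up 16.1%, 7.73% and 9.86% against 4.42%, 4.68% and 4.21%, and *Fzd5* 3.24%, 2.74% and 3.07% against 1.58%, 1.47% and 1.41%. The share of *Fzd1* was 12.6%, 14.3% and 13.0% against 16.3%, 16.5% and 17.0%. These shares are ratios within a library and carry no test here.

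**Figure D2:**
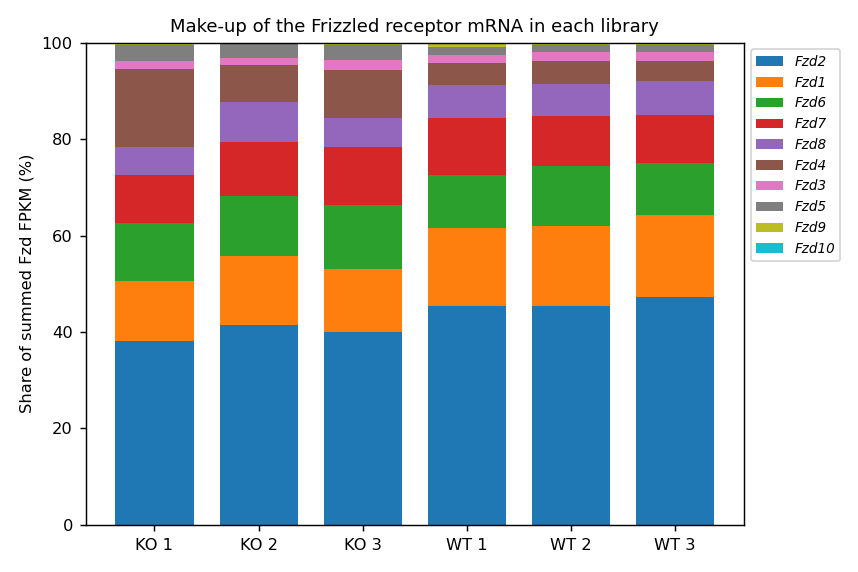
Percent of the summed Frizzled FPKM that each Frizzled gene makes up, in each of the 6 libraries. *Fzd4* made up 4.21% to 4.68% of the sum in WT-labelled libraries and 7.73% to 16.1% in KO-labelled ones, while *Fzd2* kept the largest share in each library.

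The sequences before the start sites of members that rose and of members that fell are shown next, to compare what genes that moved the same way share in sequence. RefSeq tables on GRCm38.p6 held a promoter for 32 of the 48 genes, among them 3 of the 4 that rose and 6 of the 10 that fell. Each sequence is the 250 bases before the annotated start, 5′ to 3′ on the gene's strand. Capitals mark matches on either strand to any of 3 motifs. The first is the GC box, which Sp1 family factors can bind, searched as GGGCGG. The second is the box bound by the factor NF-Y, searched as CCAAT. The third is the core of the motif of TCF/LEF factors, the partners of β-catenin, searched as CTTTGA. The windows are chr11:103749822-103750071 (minus strand) for *Wnt9b*, chr7:89404116-89404365 (plus) for *Fzd4*, chr1:64737751-64738000 (minus) for *Fzd5*, chr5:4758217-4758466 (minus) for *Fzd1*, chr7:98834862-98835111 (plus) for *Wnt11* and chr3:83766071-83766320 (plus) for *Sfrp2*. The first 3 genes rose and the last 3 fell.
Wnt9b: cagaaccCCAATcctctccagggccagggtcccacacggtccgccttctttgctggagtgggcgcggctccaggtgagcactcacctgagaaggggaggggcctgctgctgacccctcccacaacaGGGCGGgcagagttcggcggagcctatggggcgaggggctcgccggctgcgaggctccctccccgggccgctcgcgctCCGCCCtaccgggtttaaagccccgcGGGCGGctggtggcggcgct
Fzd4: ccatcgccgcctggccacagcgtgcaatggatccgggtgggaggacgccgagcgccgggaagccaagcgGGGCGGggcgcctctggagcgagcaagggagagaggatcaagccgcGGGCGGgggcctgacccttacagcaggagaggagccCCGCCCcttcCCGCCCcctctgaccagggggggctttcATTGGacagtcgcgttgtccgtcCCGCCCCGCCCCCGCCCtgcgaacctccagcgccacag
Fzd5: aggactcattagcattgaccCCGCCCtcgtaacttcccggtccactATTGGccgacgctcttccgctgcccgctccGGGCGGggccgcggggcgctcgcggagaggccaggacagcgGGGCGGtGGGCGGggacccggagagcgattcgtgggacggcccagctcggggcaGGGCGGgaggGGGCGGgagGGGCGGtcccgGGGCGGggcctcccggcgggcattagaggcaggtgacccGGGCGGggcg
Fzd1: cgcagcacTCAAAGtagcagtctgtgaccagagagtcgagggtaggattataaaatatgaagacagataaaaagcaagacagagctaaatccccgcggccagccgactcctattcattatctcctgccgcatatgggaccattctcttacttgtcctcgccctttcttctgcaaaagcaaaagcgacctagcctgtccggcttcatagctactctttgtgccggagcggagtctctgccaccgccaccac
Wnt11: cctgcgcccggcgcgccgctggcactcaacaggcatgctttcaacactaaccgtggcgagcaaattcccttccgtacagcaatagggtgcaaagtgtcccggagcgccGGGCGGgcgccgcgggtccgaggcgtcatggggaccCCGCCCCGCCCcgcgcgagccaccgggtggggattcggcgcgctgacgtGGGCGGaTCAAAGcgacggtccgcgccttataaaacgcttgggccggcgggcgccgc
Sfrp2: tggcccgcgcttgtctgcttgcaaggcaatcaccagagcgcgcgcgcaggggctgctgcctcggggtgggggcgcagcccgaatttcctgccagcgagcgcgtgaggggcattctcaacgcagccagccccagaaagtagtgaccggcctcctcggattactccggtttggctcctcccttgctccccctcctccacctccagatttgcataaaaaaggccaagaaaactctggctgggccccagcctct

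The promoters of *Wnt9b*, *Fzd4* and *Fzd5* held 3, 7 and 9 GC boxes and a CCAAT box each, and none held CTTTGA. Among the 6 genes that fell, 3 held a GC box (*Wnt11*, *Ror2* and *Frzb*), 0 a CCAAT box and 3 CTTTGA (*Wnt11*, *Fzd1* and *Frzb*). Over all 32851 promoters of the same length, 32.7% held a GC box, 33.8% a CCAAT box and 13.8% CTTTGA. The longer form CTTTGAT, AP-1 and GATA motifs were each in 1 of the 6 that fell, the TATA box and the shorter SOX motif in 2 each, and the other 7 motifs searched in none. None of the 12 motifs besides the GC box, CCAAT and CTTTGA was in a promoter of the 3 that rose. GC content was 72.0%, 72.8% and 76.4% for *Wnt9b*, *Fzd4* and *Fzd5*. It was 51.2% for *Fzd1*, 63.6% for *Sfrp2*, 64.4% for *Frzb*, 66.8% for *Rspo1*, 70.8% for *Wnt11* and 73.2% for *Ror2*, so the ranges overlapped, with a median of 52.4% over all promoters. These matches describe letters in a window and show neither a bound factor nor a cause. The motifs were chosen with the calls known, and the 9 promoters are too few for a comparison.

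No secreted antagonist rose. Of 10 antagonist genes, 6 passed the filter, all 6 with a log2 fold change below 0, and 4 fell (*Sfrp1*, *Sfrp2*, *Frzb* and *Dkk3*), with a median log2 fold change of -0.44. Of all tested genes, 12.5% were called lower and 17.7% higher, and 7361 of 14084 had a value below 0. This median lies close to those of the fibroblast, mural, cardiomyocyte, mesothelial and macrophage markers (-0.42, -0.42, -0.41, -0.41 and -0.39). Scaling to fibroblast markers moved the median of all tested genes from -0.02 to 0.41, which brings any value near -0.42 close to 0. On that scale, 0 of the 4 were called, where 0.263% of all tested genes were called lower. *Frzb*, *Sfrp1* and *Dkk3* were at -0.02, -0.03 and -0.01. The part of any cell type in the fall of the antagonists was not tested. *Frzb*, also known as Sfrp3, had the highest level, with 25.1, 27.4 and 27.9 FPKM in KO-labelled libraries and 37.1, 36.5 and 33.8 in WT-labelled ones. The labels did not overlap, and the log2 fold change was -0.45 (SE 0.06, adjusted p = 0.00134). *Sfrp1* had 21.8, 22.2 and 22.0 FPKM against 30.1, 28.9 and 29.4, a log2 fold change of -0.46 (SE 0.05, adjusted p = 0.000264). Its libraries were the most alike within each label among the 4. *Dkk3*, a DKK family member without the LRP-blocking action typical of DKK1, had 6.44, 7.70 and 7.13 FPKM against 9.31, 9.13 and 9.70, a log2 fold change of -0.44 (SE 0.09, adjusted p = 0.00679).

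*Sfrp2*, a Frizzled-related protein made by activated fibroblasts, had the largest fall of the antagonists. Its FPKM were 4.07, 5.87 and 4.37 in KO-labelled libraries and 8.52, 7.76 and 7.26 in WT-labelled ones, without overlap. The log2 fold change was -0.75 (SE 0.15, adjusted p = 0.00628), and -0.33 (adjusted p = 0.0516) on scaling to fibroblast markers. *Sfrp4* (0.521, 0.687 and 0.780 FPKM against 0.907, 0.842 and 0.840) had a log2 fold change of -0.40 (adjusted p = 0.286), and *Dkk2* one of -0.06 (95% interval -0.65 to 0.53). *Dkk1*, *Sfrp5* and *Wif1* had at most 8, 2 and 1 counts in a library, and *Dkk4* had 0 in each. The antagonist with the clearest action on LRP co-receptors, *Dkk1*, was thus too low for a precise value. With no filter, edgeR gave it a log2 fold change of -0.17 (95% interval -2.13 to 1.80, adjusted p = 0.922).

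**Figure D3:**
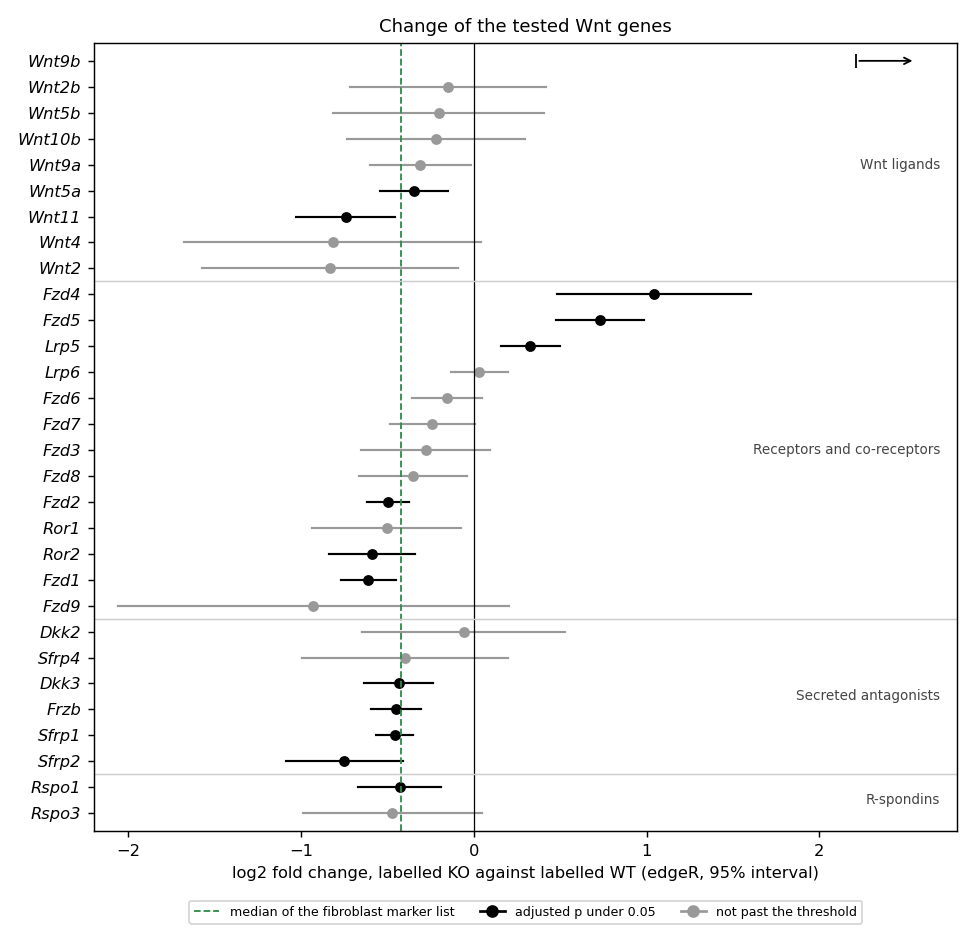
Log2 fold change of each tested Wnt gene, labelled KO against labelled WT, with its 95% interval from edgeR, black where adjusted p is under 0.05 and grey otherwise; the arrow gives the lower bound of 2.21 for *Wnt9b*, and the dashed line the fibroblast marker median of -0.42. *Fzd4*, *Fzd5* and *Lrp5* lie above 0, and the called antagonists lie near or below the dashed line. On scaling to fibroblast markers, 0 lies near that line, and the direction of *Wnt5a* turns. Mural, cardiomyocyte, mesothelial and macrophage markers had medians near it too (-0.42, -0.41, -0.41 and -0.39).

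The R-spondins and *Axin2* were mostly low. *Rspo1*, a secreted enhancer of Wnt reception through LGR receptors, had 4.38, 4.76 and 5.18 FPKM in KO-labelled libraries and 6.47, 6.25 and 6.16 in WT-labelled ones. The labels did not overlap. The log2 fold change was -0.43 (SE 0.10, adjusted p = 0.0163), and the call was lost without KO 1 (adjusted p = 0.0507) and on scaling to fibroblast markers, where the value was -0.0026 (adjusted p = 0.986). *Rspo3*, which is known from vessel growth, had 1.39, 2.52 and 2.48 FPKM against 3.10, 2.55 and 3.08, a log2 fold change of -0.47 (95% interval -0.99 to 0.05, adjusted p = 0.153). KO 1 was the lowest library for *Rspo3*, and the value was -0.24 without it. *Rspo2* had 1 count in all and *Rspo4* 0. *Axin2*, the inhibitor whose own transcription rises with β-catenin signaling, had 14, 5 and 6 counts in KO-labelled libraries and 9, 8 and 14 in WT-labelled ones. It did not pass the filter. With no filter its log2 fold change was -0.22, with a 95% interval of -1.41 to 0.98 and an adjusted p of 0.817. A change within that wide interval was not detectable at this depth.

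Summed over the class, ligand FPKM were 8.32, 8.80 and 8.20 in KO-labelled libraries and 10.6, 11.6 and 10.2 in WT-labelled ones (8.44 ± 0.315 against 10.8 ± 0.739, SD, n = 3 per label, log2 ratio -0.35, exact two-sided permutation p = 0.1). Antagonist FPKM summed to 58.5, 64.4 and 62.7 against 86.7, 83.5 and 81.7 (61.9 ± 3.05 against 84.0 ± 2.55, SD, log2 ratio -0.44, exact p = 0.1). Both sums were lower in every KO-labelled library, and 0.1 is the smallest p that 3 libraries against 3 allow. The ratio of the sums, which library scaling does not alter, was 7.03, 7.32 and 7.64 against 8.18, 7.19 and 8.02, with overlap (7.33 ± 0.308 against 7.79 ± 0.530, SD, log2 ratio -0.09, exact p = 0.3). Leaving out a library moved the log2 ratio of antagonists to ligands to between -0.14 (without WT 2) and -0.05 (without WT 1). Within the antagonists, *Frzb* made up 42.5% to 44.5% of the sum in KO-labelled libraries and 41.4% to 43.7% in WT-labelled ones, and *Sfrp1* 34.4% to 37.2% and 34.6% to 36.0%.

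**Figure D4:**
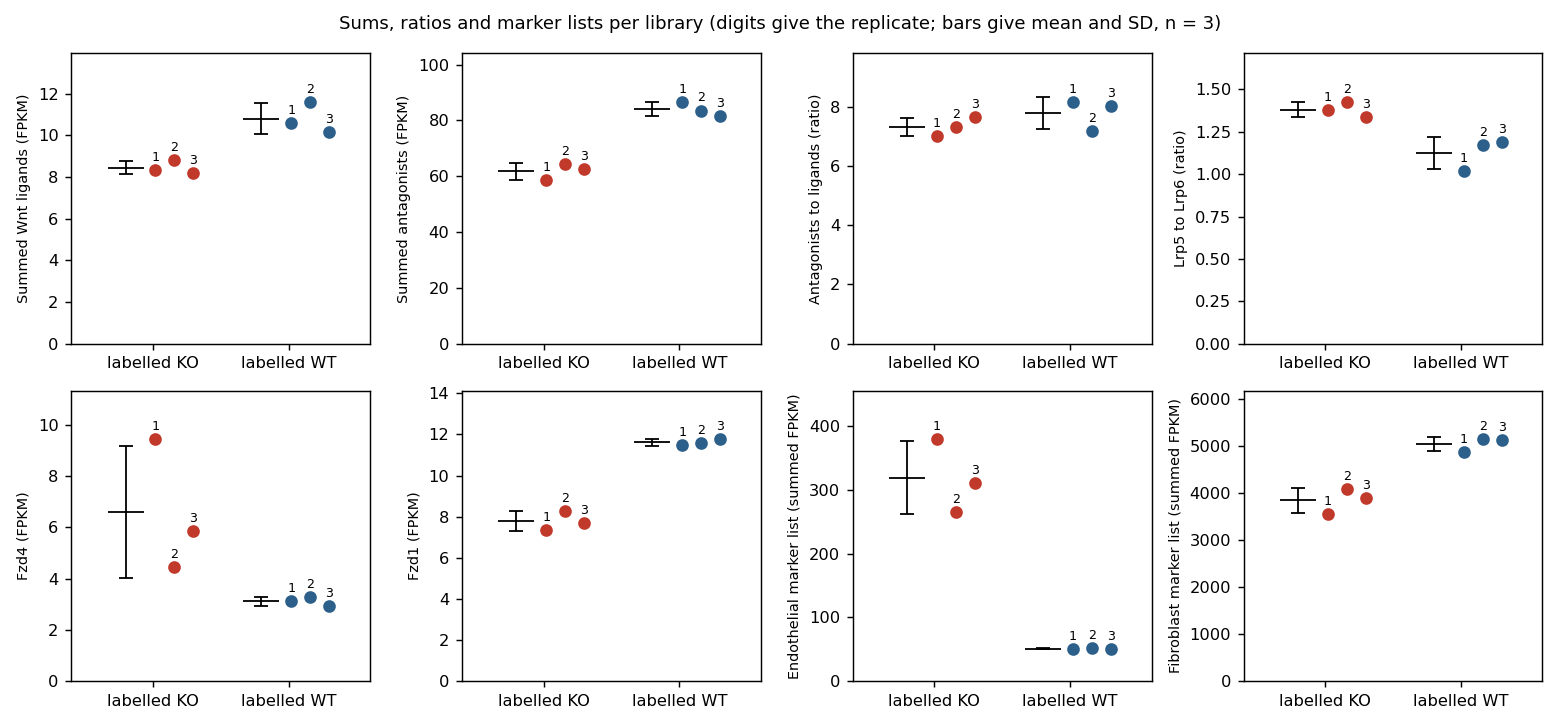
Summed FPKM of the ligands and of the antagonists, their ratio, the ratio of *Lrp5* to *Lrp6*, the FPKM of *Fzd4* and *Fzd1* and the summed FPKM of endothelial and fibroblast markers, as a point for each library (the digit is its replicate number) with the mean and SD of each label. Both Wnt sums and the fibroblast sum were lower in the 3 libraries labelled KO, the antagonist-to-ligand ratio overlapped, and the endothelial sum was 266 to 380 FPKM against 50.3 to 51.3.

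Other genes of the pathway were read from lists chosen by function. Of 65 such genes, 56 were tested, 6 rose and 10 fell (28.6% called, against 30.2% of all tested genes), with a median log2 fold change of -0.16. Among the other receptors and their modulators, *Tspan12*, a tetraspanin that works with FZD4 in Norrin signaling, had 15.6, 12.2 and 12.9 FPKM in KO-labelled libraries and 3.84, 3.62 and 4.51 in WT-labelled ones. Its libraries were far apart, and the log2 fold change was 1.73 (SE 0.12, adjusted p = 3.45e-05). *Ndp*, which encodes Norrin itself, had 0 counts in every library. As with *Fzd4*, KO 1 was the highest library for *Tspan12* and KO 2 the lowest labelled KO, the order of the endothelial sums. Of the 11 genes called higher among the members and these other lists, 8 had that order (*Wnt9b*, *Fzd4*, *Fzd5*, *Tspan12*, *Tpbg*, *Celsr1*, *Prickle1* and *Ccnd1*) and 3 had KO 3 highest instead (*Lrp5*, *Apc2* and *Tle4*), where 48.6% of the 2488 genes called higher over the whole table had it. The order rests on small gaps in some genes, such as *Wnt9b* (0.184 FPKM in KO 2 and 0.188 in KO 3) and *Celsr1* (0.896 in KO 1 and 0.886 in KO 3). *Wnt9b* also passed the filter through the KO-labelled libraries alone. All 11 genes were read in the same 3 KO-labelled libraries, so they are not separate observations of an order. The part of endothelial RNA here was not tested. *Lgr4*, a receptor for R-spondins, fell (-0.49, adjusted p = 0.00602), as did *Ptk7* (-0.30), *Ryk* (-0.32) and *Adgra2* (-0.63, adjusted p = 0.0486). WT 3 stood apart for *Adgra2*, with 16.7 FPKM against 9.70 and 9.79 in the other libraries labelled WT, and without it the log2 fold change was -0.32. The calls were lost for *Adgra2* without KO 1, KO 2 or KO 3 (adjusted p up to 0.137), and for *Ryk* without KO 1, KO 3, WT 1 or WT 2 (adjusted p up to 0.0747).

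Outside the cell, the glypicans *Gpc3* and *Gpc4*, proteoglycans that bind Wnts, fell by 0.45 each on the log2 scale, and *Cthrc1*, a secreted protein of activated fibroblasts, by 0.41. *Tpbg*, a membrane protein that inhibits β-catenin signaling at LRP6, rose from 2.31, 2.21 and 2.75 FPKM in WT-labelled libraries to 5.80, 4.43 and 4.82 in KO-labelled ones (1.01, SE 0.14, adjusted p = 0.00103). *Wls*, the carrier that brings Wnts to the cell surface, had a log2 fold change of -0.22 (adjusted p = 0.0118), lost without KO 3 (adjusted p = 0.0540) and turned to 0.21 on scaling to fibroblast markers. *Ptk7* and *Ryk* turned as well on that scale (0.13 and 0.11), and *Cthrc1*, *Gpc3*, *Gpc4*, *Lgr4* and *Adgra2* were at 0.01, -0.03, -0.02, -0.06 and -0.20 without a call. Of 9 planar cell polarity genes, *Celsr1* and *Prickle1* rose (1.05 and 0.78, adjusted p = 0.00278 and 0.00288) and 7 were not called, where 17.7% of all tested genes were called higher.

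Inside the cell, 31 of the 32 listed components of the β-catenin route were tested. Of these, 2 rose, 2 fell and 27 did not pass the threshold, with a median log2 fold change of -0.12, where 9836 of all 14084 tested genes did not pass it either. *Apc2*, a relative of the APC scaffold that takes part in β-catenin breakdown, rose (1.09, adjusted p = 0.0153, lost without KO 3 or WT 1 at up to 0.0582), and so did *Tle4*, a co-repressor of TCF/LEF factors (0.87, adjusted p = 0.00588). *Csnk1a1*, the kinase that primes β-catenin for breakdown, had a log2 fold change of -0.15 (adjusted p = 0.0331), and *Tcf7l1*, a mostly repressive TCF factor, of -0.30 (adjusted p = 0.0346). Each of this pair turned in direction on scaling to fibroblast markers (0.28 and 0.12), and calls were lost for *Tcf7l1* whichever library was left out (adjusted p up to 0.104) and for *Csnk1a1* without any library but KO 2 (up to 0.0945).

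Of 14 genes known as β-catenin targets, 11 were tested, 1 rose, 1 fell and 9 were not called (median log2 fold change -0.10). Calls made up 18.2%, against 30.2% of all tested genes. This list shares genes with the other pathway lists above, so its counts are not separate from theirs. *Ccnd1*, the gene for cyclin D1, which many other signals also induce, had 77.4, 54.3 and 64.3 FPKM in KO-labelled libraries and 10.4, 10.5 and 11.7 in WT-labelled ones. The labels were far apart, with a log2 fold change of 2.55 (SE 0.12, adjusted p = 7.84e-06). *Wisp1*, a matricellular protein gene of fibroblasts, had 85.4, 98.3 and 95.2 FPKM against 119, 124 and 121, without overlap. Its log2 fold change was -0.42 (SE 0.06, adjusted p = 0.00139), and 0.01 on scaling to fibroblast markers. *Lgr5* had 0 counts in every library.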

How the data were processed

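Cardiac fibroblast RNA was sequenced from strand-specific libraries with oligo(dT) enrichment. The authors mapped reads with HISAT2 to mm10 (GRCm38.p4) and, per the processing notes, used edgeR. The counting tool, annotation release and strand setting are not given in the sources used here. The deposited table gives raw counts, as whole numbers, and the authors' FPKM, which equal the count over gene length and library total.

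The test on counts was edgeR 4.0.16 (R 4.3.3, filterByExpr, TMM, glmQLFit and glmQLFTest, two-sided, Benjamini-Hochberg adjustment over 14084 genes), with all 6 libraries and no covariate. FPKM served for levels, sums and shares. Sums were compared by exact permutation tests over the libraries. A count of 0 allows up to 3 counts, or 0.249 CPM in the smallest library, and such floors cover counting error only. Alternatives were DESeq2 1.42.0, limma 3.58.1 on log2(FPKM + 1), upper quartile or plain library size scaling, a filter at a mean CPM of 1 or none at all, a block for replicate number, leaving out each library, and, added after seeing the data, scaling to 15 fibroblast markers. The tests were checked on simulated data.

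The members, gene lists and tests were chosen with earlier results of these data known. Named genes are every member, *Kdm5b*, genes overlapping a member, and of each other pathway list the called genes, at most 4 a direction by smallest adjusted p. Markers are named where at 0. *Ndp* and *Lgr5*, also at 0, are outside this rule and were named after their values were seen. Promoters came from RefSeq (GRCm38.p6) and were searched on both strands for 15 motifs. These were the GC box, written as GGGCGG, the box that NF-Y binds, written as CCAAT, the motif of TCF/LEF factors, written as CTTTGA, and its longer form that contains it, written as CTTTGAT. Further motifs were those of ETS factors, written as CCGGAA or, in another form, as AGGAAG, the TATA box, written as TATAAA, and those of SOX factors, written as ACAATGG or, in another form, as ACAAAG. The others were the E-box, written as CACGTG, and the motifs of E2F factors, written as TTTCGCGC, of AP-1, written as TGACTCA, of CREB, written as TGACGTCA, of GATA factors, written as AGATAA, and of SMAD factors, written as GTCTAGAC. Python 3.11.15 and matplotlib 3.10.9 made the figures.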

Additional observations from a re-analysis of the deposited data

How the results depend on the processing

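Under the alternatives other than leaving out a library or scaling to fibroblast markers, the direction and call were kept in 206 of the combinations of a member and a setting. The exceptions were *Wnt5a*, which lost its call with limma on log2(FPKM + 1), so that 1 ligand was called lower there, and *Lrp6*, at -0.0094 with the upper quartile. A mean CPM of at least 1 left out *Wnt9b*, so that 0 ligands were higher, and *Fzd9*. Of other pathway genes, 16 were lower with the upper quartile and 7 with DESeq2, with library size alone and with limma, against 10. *Kdm5b* was called with the upper quartile (-0.26, adjusted p = 0.0324).

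No clear pairing of libraries by replicate number was seen. Correlations of same-numbered libraries were between 0.002 and 0.035, and those of all combinations between -0.028 and 0.035. With 3 libraries per label, these values cannot show that the libraries were unpaired. The fit with the replicate number as a block gave 2318 higher and 1592 lower calls over all genes and kept the call of the 14 called members, and *Kdm5b* was at -0.21 (adjusted p = 0.0270).

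On leaving out each library, 168 combinations kept direction and call, 5 lost a call, 4 gained one (*Fzd8*, *Wnt2* and *Wnt9a* without KO 2, *Ror1* without WT 1) and 3 turned (*Dkk2* between -0.21 and 0.054, *Lrp6* between -0.036 and 0.10). Lower calls were between 1 and 3 for ligands, 0 and 1 for R-spondins and *Axin2* (0 without KO 1), 1 and 2 for β-catenin targets (2 without KO 1 or KO 2), 6 and 10 for other pathway genes (6 without KO 3), and 1131 and 1614 over all genes, where 1131 came without KO 3. *Kdm5b* was between -0.29 and -0.17, with the former without WT 1 (adjusted p = 0.0188).

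Scaling to fibroblast markers, chosen after seeing the data, gave 8891 higher and 37 lower calls over all genes, or 63.1% and 0.263% of those tested. Lower calls were 0 for ligands, 1 for receptors, 0 for antagonists, 0 for R-spondins and *Axin2*, 1 for all members, 0 for other pathway genes and 0 for targets. Higher calls were 5 of 13 tested receptors, 28 of 56 other pathway genes and 2 of 11 targets, against 63.1% of all tested genes. Directions turned for *Kdm5b* (0.21), *Dkk2* (0.36), *Fzd3* (0.15), *Fzd6* (0.27), *Fzd7* (0.19), *Fzd8* (0.070), *Sfrp4* (0.024), *Wnt10b* (0.21), *Wnt2b* (0.27), *Wnt5a* (0.087), *Wnt5b* (0.21) and *Wnt9a* (0.11). This scale assumes that the fibroblast markers did not change per library, which was not tested. At this depth, 18 of the 48 genes did not pass the filter and were not tested in the main fit. Of these, 5 had 0 counts in every library. The others had values only in alternative fits, such as that with no filter, with wide intervals.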
